A study of Drosophila melanogaster with 2 samples.

Results

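Coding-exon candidates are 5132 regions of the combined candidate list of an anti-GFP ChIP-seq experiment in Drosophila melanogaster. They were chosen by position and by absence from the list of reproducible peaks, which bounds their strength from above. A region was taken when it overlapped no peak of the authors' reproducible list and when its summit, the base with the highest signal, lay in a coding exon. The summit also had to be more than 1 kb from every transcription start site (TSS) of a protein-coding gene and outside every 5' UTR. The combined list held 30000 regions, of which 27267 overlapped no reproducible peak. The coding-exon candidates were 18.8% of these lower-ranked candidates.

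The experiment used whole embryos of mixed sex, 0 to 24 h old, from a stable transgenic line that carries CG9876 with GFP at its C-terminal end. There was 1 group with 2 biological replicates, no treatment and no untagged line among the samples. The labels do not name the promoter that drives the fusion, and control libraries were not analysed here. Whole embryos mix all tissues, so that recovery in few cells and weak recovery in many cannot be told apart.

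CG9876 encodes a homeodomain protein of the paired-like class. Homeodomains of this class bind short A and T rich sites built on a TAAT core, and pairs of them can bind the inverted repeat of that core. Candidate lists made for an irreproducible discovery rate (IDR) analysis are deliberately deep and reach into the background of the experiment, where local read density also follows the openness and base composition of the DNA. Coding exons in Drosophila are richer in G and C than introns and intergenic DNA.

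The summit sequences show what the strongest of these regions look like. Each is given as 30 bases around the summit, on the coding strand of its gene, from the RefSeq dm6 sequence, with runs of at least 4 G or C bases in capitals. They are from 8 of the 10 coding-exon candidates with the highest signal.
Tlk, chrX:3777299-3777328, plus strand: gcacgagtaaCGGCagcaaaagcaacaaca
CG31371, chr3R:30501455-30501484, minus strand: gtcgaacgtgctgcgagataccctgtatgg
RpL13A, chr3R:5625556-5625585, plus strand: CCCGtctacgtgtgttcgaCGGCatcccat
Reck, chr3L:15002079-15002108, minus strand: tgactggatttctcaccatggaagtGGGCa
CG3984, chr3R:15138467-15138496, plus strand: caGGCGGGtcaagacggatacaagtgcttc
siz, chr3L:21064602-21064631, plus strand: gggtggtGCGCaCCGCaaCGCGGCacgtca
alphaTub67C, chr3L:9683002-9683031, plus strand: acgagaagccagcctttgtGCCGGatggag
mirr, chr3L:12696679-12696708, plus strand: tcgctccacctCGCCGtGCGGtccgtCCGC
A letter pattern common to all 8 was not searched for. In siz and mirr the 30 bases are 73.3% and 76.7% G and C, and in Tlk and Reck 50%.

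A second set shows the motif with the largest excess over coding sequence of the same composition, the CAG repeat described further on. These are 3 of the strongest regions with the repeat CAGCAGCAG, or its reverse complement CTGCTGCTG, near the summit, with the repeat in capitals.
BuGZ, chr2L:16746419-16746448, plus strand: gtgcaacagcaggcggcggtgCAGCAGCAG
Dys, chr3R:19593895-19593924, plus strand: ccctgaatgcgttgcaccaaCAGCAGCAGc
CG2310, chr3R:29492492-29492521, minus strand: ccacttcgccacctacggcCTGCTGCTGcc
The homeodomain core TAATTA was rare at these summits. Ip259 is shown as an example, with the core in capitals, at a summit with a signal of 31.02.
Ip259, chr2L:10409394-10409423, plus strand: ttgggtgTAATTAcaaagggtactgtgatc

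Coding-exon candidates were more common than the amount of coding sequence would give, but not among the few with a low q-value. Coding exons that meet the rule, called eligible coding sequence here, make up 14.4 Mb or 10.8% of the 6 chromosome arms. The share of lower-ranked candidates in them, 18.8%, was 1.75 times that. Among lower-ranked candidates with a q-value of 0.05 or less the direction turned, with a coding share of 6.34% and a ratio of 0.588. In the candidate list of replicate 1 alone the coding-exon share was 19.99% (5477 of 27403 regions), and in that of replicate 2 it was 15.5% (4200 of 27164). The ratio to length was 1.64 ± 0.30 over the replicate lists (SD, n = 2), above 1 in both. Lower-ranked candidates within 1 kb of a TSS had a like ratio of 1.66 in the combined list only. They had 1.37 in replicate 1 and 1.89 in replicate 2, where coding exons had 1.85 and 1.43, so the order turned between replicates. Introns had 0.778 (0.816 and 0.789 in the replicates) and intergenic sequence 0.603 (0.727 and 0.509). With 1 group of 2 samples no test over samples is possible, and regions of a library are not replicates. All values are therefore descriptions, with each replicate list beside the combined one where its value is given. Some were made on the combined list alone. Among these are values by exon length and place in the gene, repeated summit sequences and overlap with other annotations. Chromosome values by GC are also from the combined list alone.

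The signal, in the authors' unit, ran from 27.2 to 84.5 in the combined list, with a median of 34.6 and quartiles of 30.4 and 41.5. The weakest reproducible peak had a signal of 85.4, so the selection itself sets this upper end. Their ranks ran from 2470 to 29990 of 30000, with a median of 17577.5. The authors' q-value was 0.0022 at best, 0.677 at the median and 0.908 at worst. At a q-value of 0.05 or less stood 123 of the 5132 (2.40%), beside 11.6% of the lower-ranked candidates within 1 kb of a TSS, 6.12% of those in introns and 5.40% of those between genes. In the replicate lists the coding-exon values were 2.23% for replicate 1 and 4.88% for replicate 2, again the lowest of these 4 classes in each list.

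Every one of the 5132 regions was 370 bp wide. The whole region was coding in 2632 (51.3%), and at least 50% of its bases were coding in 4943 (96.3%). The rule's distance limit falls in the middle of a continuum. Lower-ranked candidates with a summit in a coding exon were compared on either side of that limit, here without leaving out 5' UTRs. The 255 with summits 1001 to 1100 bp from a TSS had a median signal of 36.1. The 276 with summits 901 to 1000 bp away, just outside the rule, had 35.0. The nearest reproducible peak was 12361.5 bp away at the median, and 36 regions had one within 1 kb. Among the 2433 reproducible peaks, 10 had summits in eligible coding sequence, with signals from 93.5 to 624.2.

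The coding share rose down the ranking and then levelled off. In the combined list, coding-exon summits were 0.90% of the 3000 regions with the highest signal, 10.03% of the next 3000 and 18.6% of ranks 6001 to 9000. From there to the end of the list the share stayed between 18.6% and 21.7%. The replicate lists had the same shape at different heights. Replicate 1 went from 2.93% in the top 3000 to 17.1% in the next bin and was between 19.6% and 21.6% after rank 6000. Replicate 2 began at 0.83%, passed 12.3% at ranks 6001 to 9000 and reached 18.5% at its highest. Promoter summits went the other way, from 65.3% of the top 3000 to 27.7% of the last 3000 in the combined list.

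**Figure D1:**
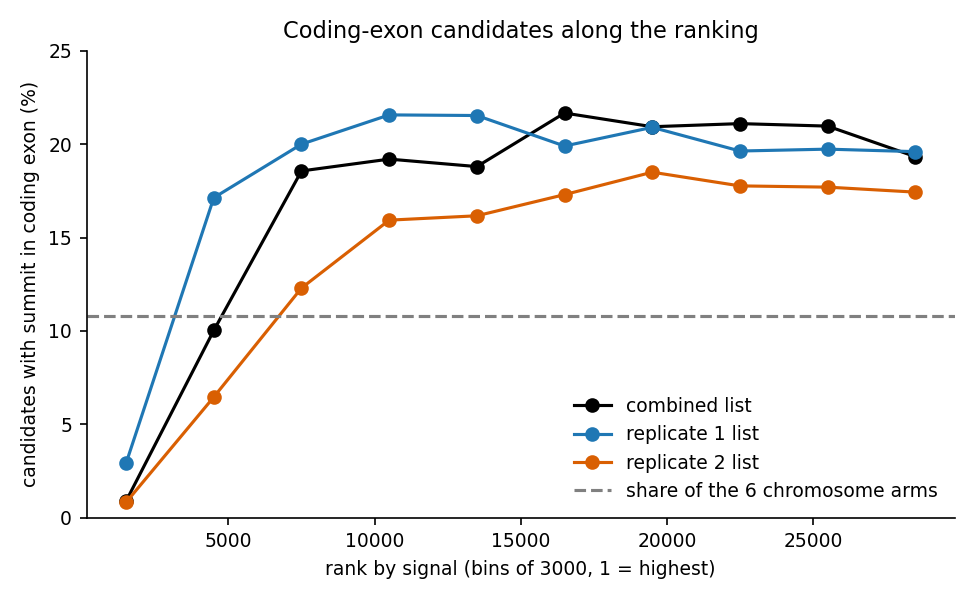
Share of candidate regions with a summit in eligible coding sequence (y axis, percent) in bins of 3000 ranks by signal (x axis, 1 is the highest), for the combined list and each replicate list. The dashed line is the 10.8% of the 6 arms that this sequence covers. All 3 lists start below 3% and cross the line by rank 9000, replicate 1 first.

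The regions with the highest signal lay in genes of many kinds, from a ribosomal protein to patterning factors. The 20 strongest had signals of 74.1 to 84.5 and a median GC content of 60.4% within 100 bp of the summit. A region of the replicate 1 list and one of the replicate 2 list covered the summit in 19 of the 20, and 11 lay within 2 kb of a TSS. The strongest of all was in Tlk, the Tousled-like kinase that acts in chromatin assembly. Its combined signal was 84.5 and its signal in replicate 2 was 75.6, and no region of the replicate 1 list covered its summit. It is the 1 of the 20 that is missing from a replicate.

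RpL13A, a protein of the large ribosomal subunit, had a combined signal of 83.4, with 39.8 in replicate 1 and 45.8 in replicate 2. alphaTub67C, a maternal alpha-tubulin, had 79.4, 46.8 and 30.6 in the same order. Eno, the glycolytic enzyme enolase, had 74.8, 36.1 and 36.6. These summits lay between 1096 and 1748 bp from the nearest TSS. Signals of different lists may differ in scale, so places in the replicates are compared by rank. alphaTub67C stood higher in replicate 1 (rank 2073, against 6012 in replicate 2), and RpL13A was at ranks 2761 and 2522.

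mirr, an Iroquois homeodomain factor, had a combined signal of 78.3, with 33.2 in replicate 1 and 46.9 in replicate 2. Its summit stood 3054 bp from a TSS in sequence of 78.1% GC, the highest of the 20. pum, the translational repressor Pumilio, had 74.9, 38.5 and 32.0 in sequence of 69.2% GC. pyd, the fly counterpart of the junction protein ZO-1, had 75.1, 31.2 and 42.2, and its summit was 10308 bp from a TSS, the farthest of the 20. siz, an exchange factor for Arf GTPases, had 80.8, 37.3 and 44.6, and Reck, a membrane-anchored inhibitor of matrix proteases, had 82.4, 39.9 and 38.2.

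The rest of the 20 were spread over enzymes and signalling genes. Adk3, an adenylate kinase, was the most uneven between the replicates among the 19 found in both, with 57.5 in replicate 1 (rank 1519) and 18.4 in replicate 2 (rank 19773). MESK2 was uneven the other way, with 23.0 in replicate 1 (rank 11769) and 50.9 in replicate 2 (rank 2013). PAN3, a subunit of a poly(A) deadenylase, had 40.7 and 36.3, and Ac76E, an adenylyl cyclase, had 32.3 and 36.4. Cyp28d2, a cytochrome P450, had 27.0 and 45.3, BtbVII 52.9 and 39.7, and DIP2 45.1 and 29.5. CG31371, CG3984 and CG9801 had 45.1 and 40.6, 37.6 and 43.9, and 46.3 and 28.0. A high combined signal thus came with near ranks in the replicates for Eno (3391 and 3984) and with distant ones for Adk3 and MESK2.

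Most coding-exon candidates of the combined list were found in 1 replicate list and not in the other. A region of the replicate 1 list covered the summit in 3389 (66.0%), a region of the replicate 2 list in 2851 (55.6%), both in 1588 (30.9%) and neither in 480 (9.35%). The combined list was made from the reads of both replicates, so this is a check of what fed it, not independent evidence. In the group of 1283 with the lowest signal, 4.83% were covered in both replicate lists, and in the next group of equal size 10.8%. In the group with the highest signal, from 41.5 up, it was 73.7%. For the other classes the share covered in both was 38.0% within 1 kb of a TSS, 31.4% in introns and 28.0% between genes.

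Where both replicates had a region, the strength in one said little about the strength in the other. Over the 1588 such regions the Spearman correlation of the replicate signals was 0.16 and the Pearson correlation of their log2 values 0.18, across regions that share libraries and are not independent. The SD of the log2 ratio of replicate 1 to replicate 2 was 0.45. For candidates within 1 kb of a TSS the Spearman correlation was 0.20 (3481 regions). All of these regions had already been limited to signals under that of the reproducible peaks, which narrows the range. The rule also takes out regions that overlap a reproducible peak, and so selects against agreement between the replicates. Few coding summits are open to this step, since 10 reproducible peaks had summits in eligible coding sequence. How far the selection changes the correlation was not tested. The correlation is no measure of the agreement of the whole lists.

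The replicate lists can also be compared directly, without the combined list. Of the 5477 coding-exon summits of replicate 1, 29.0% lay inside a candidate region of replicate 2, whose regions cover 10.5% of eligible coding sequence. Of the 4200 of replicate 2, 35.4% lay inside a region of replicate 1, which cover 12.4%. Both the overlap and the coverage rose with GC content. At 40 to 45% GC, 19.5% of replicate 1's summits lay in regions of replicate 2 that cover 5.58% of such sequence, and at 65 to 70% GC it was 44.4% against a coverage of 25.8%. In the other direction the values at 40 to 45% were 12.6% against 4.02%, and at 65 to 70% they were 61.1% against 36.1%. The overlap was above the coverage in all 6 bins from 40 to 70% in both directions. The same measure was 46.3% and 33.4% for promoter summits, 29.4% and 30.4% for introns and 23.7% and 33.0% between genes. In every class, summits of regions that overlap a reproducible peak had been left out. Only 10 of the 2433 reproducible peaks had summits in eligible coding sequence, so this touches the classes unequally. The values therefore do not rank the classes by agreement of the whole replicate lists.

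**Figure D2:**
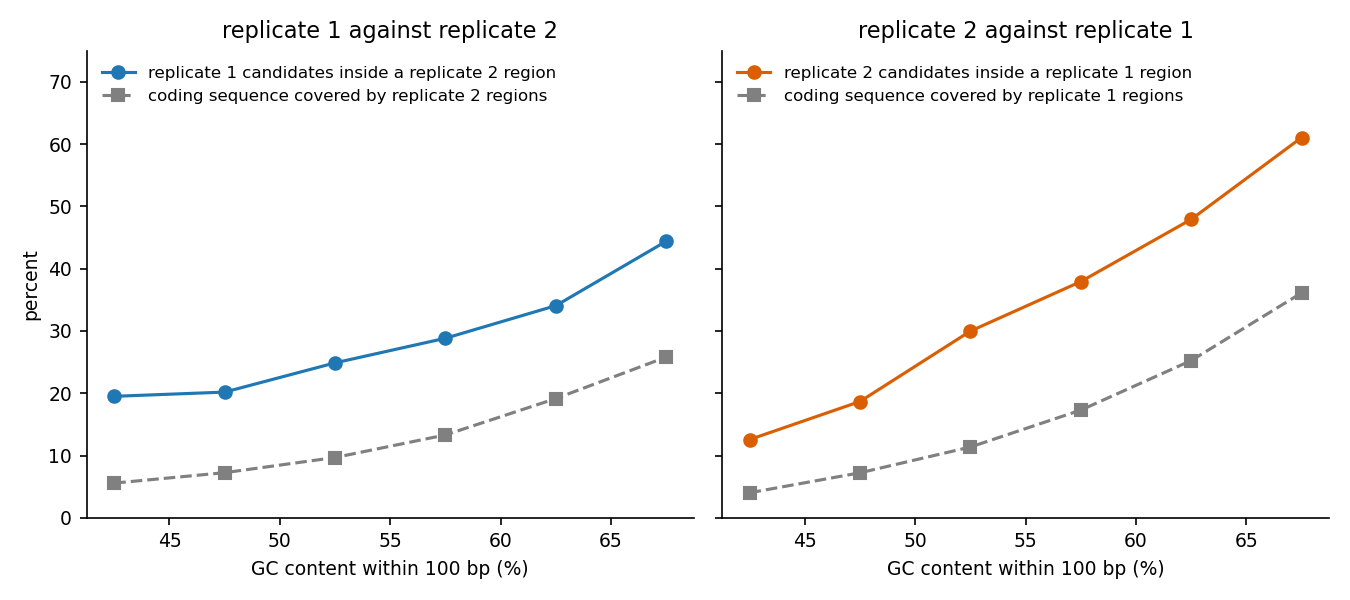
Percent of coding-exon summits of one replicate list that lie inside a region of the other (solid line) and percent of eligible coding sequence that the other list's regions cover (dashed line), by GC content within 100 bp (x axis, bins of 5%). Left, replicate 1 against replicate 2; right, the reverse. Both lines rise with GC, and the solid line is the higher one in every bin.

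Base composition set these regions apart from the sequence they were drawn from. The median GC content within 100 bp of the summit was 57.2%, with quartiles of 53.2% and 61.2%, while all eligible coding sequence had a median of 52.2%. The coding-exon summits of replicate 1 had a median of 56.7% and those of replicate 2 of 56.2%. Introns, intergenic sequence and promoters showed a shift of the same direction. Intron candidates had a median of 45.3% against 40.3% for the sequence of that class, intergenic candidates 47.3% against 41.3% and promoter candidates 48.8% against 43.3%. Stronger coding-exon candidates were richer in GC, with medians from 55.7% in the group with the lowest signal to 58.7% in the group with the highest.

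The number of candidates per Mb of eligible coding sequence climbed with GC in every bin that held more than 0.1 Mb. In the combined list it was 4.32 per Mb at 30 to 35% GC, where there was 1 region, and 108 per Mb at 40 to 45%. It reached 293 at 50 to 55%, 502 at 55 to 60%, 850 at 60 to 65% and 1301 at 65 to 70%. The replicate lists climbed too, less steeply in replicate 2. Replicate 1 had 108 per Mb at 40 to 45% and 871 at 60 to 65%, and replicate 2 had 126 and 568. Introns had 155 and 592 candidates per Mb in the same bins of the combined list, while intergenic sequence fell from 329 per Mb at 55 to 60% GC to 201 at 60 to 65%.

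Against introns and intergenic sequence of the same GC, coding exons held fewer candidates at low GC and more at high GC. In the combined list the ratio of coding to non-coding density was 0.365 at 35 to 40% GC, 0.794 at 40 to 45% and 0.926 at 50 to 55%. It was 1.33 at 55 to 60% and 2.82 at 60 to 65%, the last from 125 non-coding candidates in 0.414 Mb. Replicate 1 went from 0.504 at 35 to 40% to 2.39 at 60 to 65%, and replicate 2 from 0.876 to 3.23. Replicate 1 passed 1 at 55 to 60% GC and replicate 2 at 45 to 50%.

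An average over these bins hides the opposite directions and depends on which bins enter. Over bins from 20 to 60% GC, each with at least 0.5 Mb of non-coding sequence, the coding density was 1.94 times the non-coding one without regard to GC and 1.03 times when compared bin by bin. The value bin by bin was 0.887 in replicate 1 and 1.28 in replicate 2 (1.09 ± 0.28, SD, n = 2). These bins leave out 31.04% of the coding-exon candidates, those above 60% GC. With bins of at least 0.1 Mb, which leave out 7.87%, the values were 2.33 without regard to GC and 1.22 bin by bin (1.05 in replicate 1 and 1.46 in replicate 2). Why the density of candidates moves with GC was not tested.

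**Figure D3:**
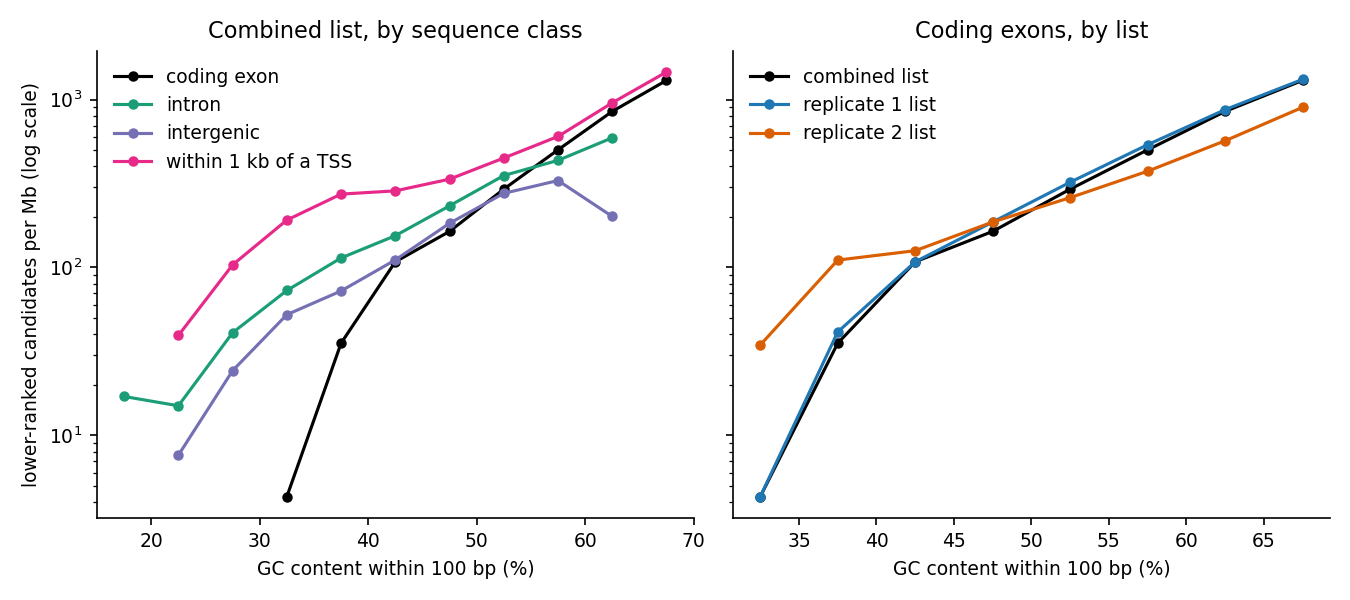
Lower-ranked candidates per Mb of sequence (y axis, log scale) against GC content within 100 bp of each position (x axis, bins of 5%, bins with at least 0.1 Mb). Left, the combined list by class of sequence; right, eligible coding sequence by list. Coding exons cross above introns at 55 to 60% GC, and the line of replicate 2 is the flattest of the 3 lists.

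Motif content was compared in the 3678 coding-exon candidates (71.7%) whose whole window of 100 bp on each side was eligible coding sequence, beside 53949 windows of 201 bp that tile such sequence. Motifs were read on both strands. The repeat CAGCAGCAG, which encodes glutamine in one reading frame and is known in Drosophila as the opa repeat, was in 422 windows (11.5%). All tiles held it in 6.30%, and tiles weighted to the GC content of the candidates in 8.87%. The coding-exon windows of replicate 1 and replicate 2 held it in 11.3% and 10.6%, also above both tile values. This was the largest excess in percentage points among the 14 motifs searched. Outside coding exons the repeat was in 2.68% of intron candidates.

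Homeodomain cores were rare, near the level that base composition gives. TAATTA was in 19 windows (0.52%), against 1.05% of all tiles and 0.56% of tiles weighted by GC. In the replicate lists it was in 0.51% and 0.67%. The inverted repeats with TAAT and ATTA set apart by 2 or by 3 bases, the forms bound by pairs of paired-class homeodomains, were in 0 and 3 windows. Over all 5132 regions TAATTA was in 1.247%, beside 10.3% of intron candidates, 9.42% of intergenic candidates and 11.3% of reproducible peaks. TAATCC, the core preferred by the Bicoid type of homeodomain, was in 3.97%, against 4.39% of GC-weighted tiles.

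The DNA replication-related element TATCGATA, common at housekeeping promoters, was in 1 window (0.027%), against 0.089% of GC-weighted tiles and 6.04% of reproducible peaks. The replicate lists held it in 3 windows each (0.076% and 0.106%). The core promoter motif GGTCACACT was also in 1 (0.027%), against 0.075% of GC-weighted tiles. In the replicate lists that motif was in 5 and 3 windows (0.127% and 0.106%), above the tile value. The Zelda site CAGGTAG, read in the early embryo, was in 2.01% against 2.06%, and the E-box CACGTG in 3.59% against 3.56%. The GATA site AGATAA was in 3.34% against 3.13%. GAGAGAGA, read by GAGA factor, was in 16 windows (0.44%) against 0.21%, with 0.38% and 0.35% in the replicate lists, a small number of windows.

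Nearly all of these summits lay in unique sequence. The 31 bases centred on the summit occurred more than once on the 6 arms in 10 of 5132 regions (0.195%), against 2.23% of tiles of eligible coding sequence. A low share was not particular to coding exons. It was 0.220% for intron candidates, 0.218% within 1 kb of a TSS, 0.473% between genes and 0.082% for reproducible peaks. The coding-exon candidates with the most copies were in corto, a chromatin protein gene, and in Ptip, with 4 copies each. Annotated tRNA genes overlapped 0 regions, annotated long and other non-coding RNAs 99 (1.93%, against 5.77% of the other lower-ranked candidates) and annotated transposable elements 9 (0.175% against 0.931%). Overlap with these features is limited by the rule, which asks for a coding base at the summit.

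The chromosomes differed. The autosomal arms 2L, 2R, 3L and 3R held between 364 and 387 coding-exon candidates per Mb of eligible coding sequence. The X held 273, and the small chromosome 4 held 78.5. For the X the replicate lists gave 262 and 255.9 per Mb, below all 4 large autosomal arms in replicate 1 (393 to 436) and in replicate 2 (290 to 307). The coding candidates of the X are GC rich, with a median of 59.2%. At the density that eligible coding sequence of the same GC has in the combined list, the X would hold 1162, and the observed 731 are 0.629 of that, while the 4 large autosomal arms stood at 1.09 to 1.13. Chromosome 4 went apart between replicates, with 9 coding-exon candidates in replicate 1 and 52 in replicate 2. Its 19 in the combined list were 0.937 of the number by GC.

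Within genes the density varied with the length of the exon more than with the place in the coding sequence. Overlapping coding exons of a gene were joined into blocks. Blocks of up to 200 bp held 191 candidates per Mb, blocks of 401 to 800 bp 477 and blocks over 3200 bp 212. Short blocks were at the level of their GC content (0.973 of it), while blocks over 3200 bp were at 0.695. Coding sequence 1001 to 1500 bp from a TSS held 393 per Mb, and that over 10 kb away 286. With each gene's coding sequence split into 3 equal segments, the 5' segment held 380 per Mb, the middle one 325 and the 3' segment 370.

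Of 9161 genes with eligible coding sequence, 3358 (36.7%) held at least 1 candidate. There were 2247 genes with 1, 724 with 2 and 387 with 3 or more, of which 66 had 5 or more. The replicate lists reached 3417 and 2935 genes, and 1837 were in both. CG9876 itself has 566 bp of eligible coding sequence and held 0 candidates in all 3 lists.

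The gene with the most was lola, which encodes a family of BTB zinc finger proteins through a long set of alternative last exons. It held 14 candidates, and 12 in the list of replicate 1 and 10 in that of replicate 2, in 14266 bp of eligible coding sequence. At the density of coding sequence of the same GC it would hold 5.92 in the combined list. Msp300, a nuclear-envelope nesprin, held 13 in 64282 bp (15 in replicate 1 and 6 in replicate 2), against 15.4 by GC. shot, a spectraplakin, held 9 (9 and 5) against 8.52 by GC, and sls, the fly titin, held 7 (15 and 4) against 10.9 by GC.

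kis, a chromodomain helicase of the trithorax group, held 10 (6 and 6 in the replicates) against 4.77 by GC. skd, a subunit of the Mediator kinase module, held 8 (6 and 7) against 3.36. mask, an ankyrin repeat protein, held 9 (8 and 9) against 5.12, and Tlk held 6 (3 and 3) against 1.85. Svil, the fly supervillin, held 9 (8 and 6) against 4.95, and Doa, a LAMMER family kinase, held 8 (5 and 5) against 3.97. Dscam1, the highly spliced neuronal receptor, held 8 against 6.42 and was uneven, with 10 in replicate 1 and 1 in replicate 2. wb, a laminin alpha chain, held 7 (5 and 3) against 3.58, rudhira 7 (4 and 4) against 3.67 and Mical, an actin-oxidising enzyme, 7 (6 and 4) against 4.22. ctrip held 6 (8 and 6) against 3.36. In all, 18 genes held 6, and Tlk and ctrip are named from that tie for their higher signal. Of these 15 genes Msp300 and sls were below the number by GC; since genes were picked for a high count, the others were bound to tend above it.

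Among the 426 genes with at least 5 kb of eligible coding sequence, the median was 0.294 candidates per kb and 75 (17.6%) held none. The densest was SNF4Agamma, the gamma subunit of AMP-activated kinase, with 1.09 per kb (6 candidates, 4 and 2 in the replicates). rudhira, side-III, lola, skd and Pura followed with 0.995, 0.987, 0.981, 0.963 and 0.947 per kb. Doa, CG42748, sbb (a transcriptional corepressor) and CG43867 had 0.939, 0.924, 0.904 and 0.900. These 10 were at 54.3 to 59.96% GC. CG42748 rested mostly on replicate 2, with 1 candidate in replicate 1 and 4 in replicate 2.

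The longest genes with none were Muc14A, a mucin, with 48248 bp at 36.4% GC, and futsch, the fly microtubule-associated protein of the MAP1B family, with 16061 bp at 52.6% GC. Muc14A held 0 in both replicate lists too, and futsch 0 and 1. At their GC content Muc14A would hold 1.41 and futsch 5.40. Of the 75 genes with none in the combined list, 25 had none in either replicate list. An example of the others is the atypical cadherin gene ft, which had 0 combined candidates but 5 of replicate 1 and 1 of replicate 2. Genes with none had a median GC content of 50.5%, and those with at least 1 had 54.4%.

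Across the 426 long genes, candidates per kb and GC content had a Spearman correlation of 0.47 and a Pearson correlation of 0.45. Candidates per kb in replicate 1 and in replicate 2 had a Spearman correlation of 0.33. After each gene's level by GC was subtracted, that between the replicates was 0.25. Genes are not independent replicates, and all share the same libraries.

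**Figure D4:**
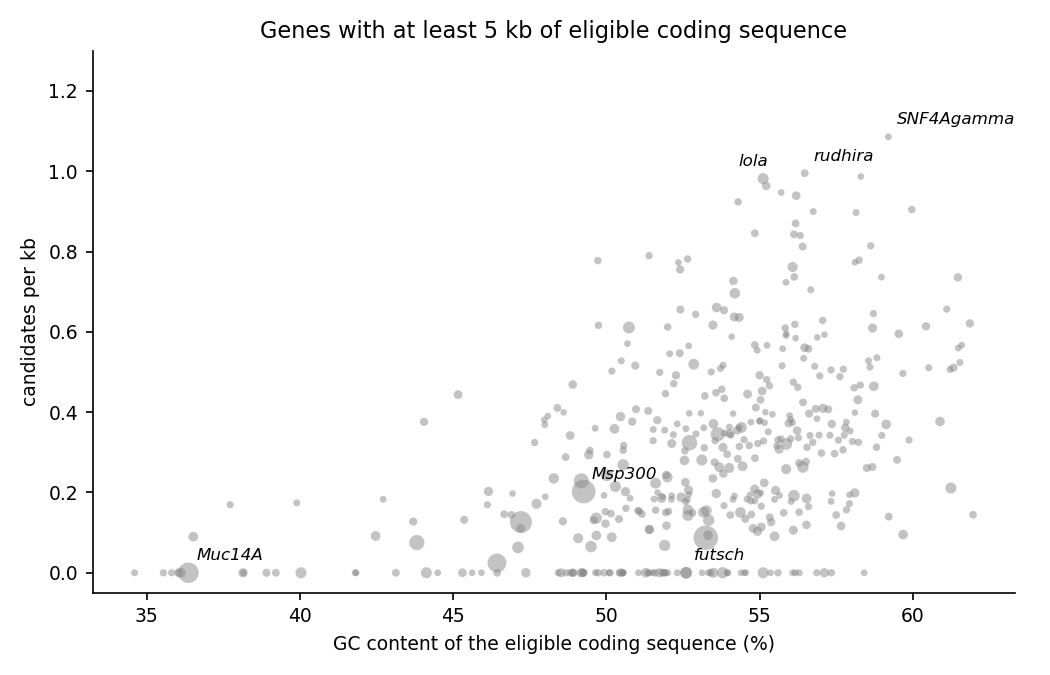
Candidates per kb of eligible coding sequence in the combined list (y axis) against GC content of that sequence (x axis) for the 426 genes with at least 5 kb of it; point area grows with the length of the eligible sequence. Genes above 0.8 per kb stand to the right of 54% GC, and Muc14A is the large point at 0 on the left.

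The gene lists spread from 144 to 1068 candidates per Mb of eligible coding sequence, beside 356 per Mb over all genes. The all-gene values of replicate 1 and replicate 2 were 380 and 291. Of 24 lists, 7 stayed above all genes and 8 below in the combined list, in each replicate list, with both other promoter windows and among the candidates with the higher signal. The other 9 fell on different sides of the all-gene value depending on the list or window. These were the Wnt, Hedgehog and BMP, the Hippo and insulin, the PRD class, the ion channel, the translation factor, the aminoacyl-tRNA synthetase, the germ plasm, the glycolysis and the eggshell lists. These counts do not take the GC content of a list into account, which is done further on.

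The highest value was that of a short list. Actin, tubulin and histone genes had 1068 per Mb, and 854 in each replicate list, from 10 candidates in 7 of 12 genes. alphaTub84B held 3 and betaTub60D 2. The 31 bases at the summit occurred once on the 6 arms for all 10. Homeobox and segmentation genes had 721 per Mb (750 in replicate 1 and 548 in replicate 2), from 25 candidates in 18 of 33 genes. The Hox genes pb and Abd-B held 3 and 2, and hry, the pair-rule repressor hairy, held 2. In the replicate lists pb held 4 and 0, Abd-B 1 and 1 and hry 1 and 2. Genes of nervous system fate had 610 (805 and 561), with 4 in grh, which encodes the Grainyhead factor, 3 in the POU factor gene nub and 2 in elav, a neuronal RNA-binding protein.

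The signalling lists ranged widely. EGFR, FGF and Ras pathway genes had 613 per Mb, and 475 in each replicate list. Sos, the Ras exchange factor, held 4, and vn, a ligand of the EGF receptor, and S, a carrier of such ligands, held 2 each. Wnt, Hedgehog and BMP genes had 481 (368 and 382), with 3 each in sax, a BMP receptor, in sgg, the kinase GSK3, and in nkd, an inhibitor of Wnt signalling. Relative to all genes this list was on both sides of 1, from 0.970 to 1.57. Notch pathway genes had 300 (346 and 253), with 2 each in the corepressor gene gro, the ubiquitin ligase gene mib1 and Hairless (H). In the replicate lists gro held 0 and 0, mib1 2 and 2 and H 1 and 1. Hippo and insulin pathway genes had 378 (303 and 397), and 5 of their 20 candidates were in InR, the insulin receptor.

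PRD class homeobox genes, the class to which CG9876 belongs, had 608 per Mb both combined and in replicate 1, but 255.99 in replicate 2. That is 19, 19 and 8 candidates in 24 genes. At their GC content of 59.9% they would hold 19.9 in the combined list, a ratio of 0.955. That ratio was 0.920 in replicate 1 and 0.556 in replicate 2. al, the aristaless gene, held 3, and Vsx1, known from the visual system, held 2.

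Polycomb and trithorax group genes had 437 per Mb (380 and 388), with 10 in kis, 6 in osa, a subunit of the Brahma remodelling complex, and 4 in Su(z)12, a subunit of the complex that methylates H3K27. RNA polymerase and Mediator genes had 401 (386 and 341), with 8 in skd and 5 and 3 in Taf4 and Taf1, subunits of the general factor TFIID. Heat shock and chaperone genes had 587 (449 and 311), with 3 in Hsp83. Translation factors had 368 (368 and 515), with 3 in eIF3a, and aminoacyl-tRNA synthetase genes 489 (339 and 527), with 2 in CysRS. Glycolysis and TCA cycle genes had 466 (621 and 466), with 2 each in Mdh2 and Idh3a. In the replicate lists Mdh2 held 1 and 1 and Idh3a 0 and 1. Genes for germ plasm and RNA control had 331 (386 and 331), with 4 in pum, 3 in tud and 2 in AGO1.

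Endocytosis and lipoprotein receptor genes had the lowest value, 144 per Mb (241 and 160), from 18 candidates in 10 of 18 genes. Titin, spectrin and other cytoskeletal genes had 203 (305 and 194), cell adhesion and axon guidance genes 227 (303 and 147) and extracellular matrix genes 239 (331 and 171). dpy, a giant matrix protein gene, held 6 in 68847 bp, against 23.4 by GC, although replicate 1 had 13. Muscle structural genes had 252 (346 and 162), nuclear pore and splicing genes 250 (303 and 250) and ion channel and synapse genes 335 (398 and 215). In these lists, apart from nuclear pore and splicing genes, replicate 1 was above replicate 2 by a larger ratio than over all genes.

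Against the number that each list's GC would give, homeobox and segmentation genes were at 1.15 (1.15 and 1.21 in the replicates). Heat shock genes were at 1.17 combined but at 0.841 and 0.826 in the replicates. Actin, tubulin and histone genes stayed at 1.90 (1.44 and 2.09 in the replicates), on 10 candidates. EGFR, FGF and Ras genes were at 1.42 (1.03 and 1.41) and genes of nervous system fate at 1.11 (1.40 and 1.39). RNA polymerase and Mediator genes were at 1.19 (1.06 and 1.21). Polycomb and trithorax group genes were at 1.22, with 0.991 in replicate 1 and 1.32 in replicate 2. Endocytosis genes were at 0.530 (0.816 and 0.662), matrix genes at 0.655 (0.844 and 0.575) and Notch genes at 0.641 (0.700 and 0.710), below 1 in all 3 lists. So were titin and spectrin genes at 0.690 (0.960 and 0.761) and adhesion genes at 0.723 (0.898 and 0.552). Nuclear pore and splicing genes were at 0.789 (0.891 and 0.923). Muscle structural genes were at 0.929, with 1.19 in replicate 1 and 0.674 in replicate 2. Chemoreceptor genes were at 0.971 (0.674 and 0.825), with 4 candidates and 269 per Mb. Eggshell genes were at 0.829 (0.780 and 0), with 2 candidates and 333 per Mb. Aminoacyl-tRNA synthetase genes were at 1.57 (1.002 and 1.97), on 13 candidates. Translation factors were at 1.12 (1.05 and 1.87). Wnt, Hedgehog and BMP genes were at 1.13 (0.819 and 1.15) and Hippo and insulin genes at 1.06 (0.791 and 1.36). Glycolysis and TCA genes were at 0.901 (1.14 and 1.21). Germ plasm genes were at 1.04 (1.13 and 1.23) and ion channel genes at 0.990 (1.11 and 0.769).

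**Figure D5:**
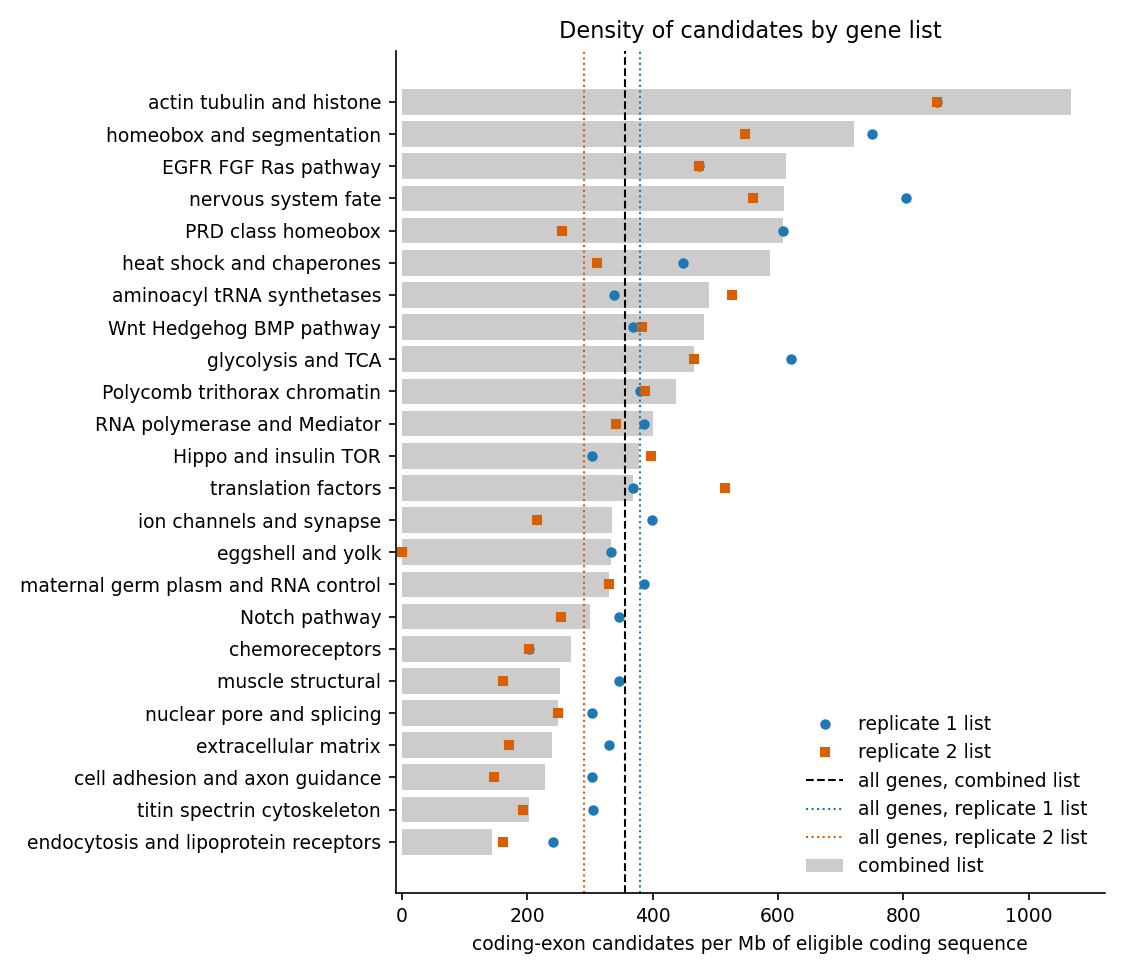
Coding-exon candidates per Mb of eligible coding sequence (x axis) for 24 gene lists (y axis); bars show the combined list, circles replicate 1 and squares replicate 2. The dashed line at 356 and the dotted lines at 380 and 291 are the values over all genes. Actin, tubulin and histone genes are highest and endocytosis genes lowest in the combined list.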

How the data were processed

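Each deposited list is a narrowPeak file in dm6 made by the authors. Per the deposited text files and labels, regions were listed per replicate and on both replicates together. Which aligner and peak caller were used, with which settings and read depth, is not given in the sources used here. Column 7 holds the authors' signal value, which was ranked only within a list. The −log10 q-value (column 9) deposited by the authors was turned back into a q-value. The versions in dm3 were not used.

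Summits were classed with Ensembl release 115 gene models, in the order promoter (1 kb around a TSS), 5' UTR, coding exon, 3' UTR, intron, intergenic. Eligible coding sequence is every base of the coding class. A gene's level by GC is the number it would hold at the density of all eligible coding sequence of the same GC, in bins of 5%, in the same list. Gene symbols matched through RefSeq synonyms, and 16 of 623 listed symbols matched no gene.

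The members, gene lists, motifs and tests were chosen with earlier results of these data known. Some genes that the naming rule picks are not reported here. Named genes were those of the 20 candidates with the highest signal, the 15 genes with the most candidates, the 10 densest with at least 5 kb and up to 3 per list. Long genes with none were named by length after their values were seen, as were the genes with repeated summit sequences. Scripts ran in Python 3.11.15 (numpy 2.4.6, scipy 1.17.1, pandas 2.3.3 and, for figures, matplotlib 3.10.9). Classing, overlap and the GC comparison were tested on simulated data. In 3 simulations, each with a density ratio that was the same at every GC content, the true ratio was recovered to within 1.85%. In the data the ratio changed with GC, which these simulations did not cover.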

Additional observations from a re-analysis of the deposited data

How the results depend on the processing

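No paired analysis was possible because the study has 1 group. The number of coding-exon candidates fell to 3147 with a promoter window of 2 kb, to 123 with a q-value of 0.05 or less and to 2285 among the 50% with the higher signal. Their share of lower-ranked candidates was 25.3% with a window of 500 bp, 11.5% with 2 kb and 6.34% with the q-value limit. The ratio to length was 0.588 with the q-value limit, on the other side of 1, and stayed between 1.43 and 1.85 otherwise. Without 1 replicate, that is in the other's list alone, the number was 4200 to 5477, the share 15.5% to 19.99%, the ratio 1.43 to 1.85 and the median GC content 56.2% to 56.7%. Median GC was 58.4% within 50 bp and 55.6% within 200 bp. The share covered in both replicate lists was 37.8% when any overlap of 1 bp counted and 94.3% for candidates under the q-value limit. The density against other DNA of the same GC was 0.887 to 1.28 without 1 replicate, and between 0.910 and 1.22 with bins of 2% or 10%, introns only, intergenic sequence only or bins with at least 0.1 Mb, choices made after seeing the data. Of 120 list values, 49 moved by more than the replicate SD, and of 42 motif values 30 did. The motif values here are over all coding-exon candidates, not only those with a wholly coding window. They include the window of 50 bp on each side, in which the share of any motif cannot rise. This count therefore does not measure how far the motif results above depend on processing. Depth is unknown, and 2 samples allow no test.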
